A study of Mus musculus with 27 samples.

Results

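The 9 interferon-stimulated genes described here were followed across the lobular zones of the maternal mouse liver: Ifit1, Ifit3, Isg15, Oasl1, Oasl2, Irf7, Usp18, Rsad2 and Gbp2. They were taken by symbol from an expression table of 21823 genes, in which each of the 9 symbols named 1 gene. The livers came from wild-type female C57BL/6 mice (C57BL/6N in the study's methods), either without a pregnancy (NP) or 8 days (dpc8) or 16 days (dpc16) after coitus, and the labels name no transgene or treatment. Zone 1 (around the portal vein), zone 2 (midlobular) and zone 3 (around the central vein) were cut from frozen liver sections by laser microdissection, and the RNA was sequenced after removal of ribosomal RNA. Each of the 9 combinations of stage and zone had 3 libraries, 27 in all. The labels number the libraries of a group 1 to 3 but do not say whether the numbers stand for animals. The study's methods speak of independent experiments in different mice but tie no library to an animal, so the spread between libraries may be technical in part.

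Interferons are secreted proteins that cells release when sensors detect foreign nucleic acid. Type I interferons bind the receptor Ifnar1 and Ifnar2, and the signal reaches the nucleus through a complex that includes Stat2 and Irf9 and binds a DNA element called the interferon-stimulated response element. Interferon gamma uses another receptor and acts through a DNA element called the gamma-activated sequence. In liver, hepatocytes and the resident macrophages (Kupffer cells) both carry these pathways, and a low level of interferon-stimulated transcripts is present without infection.

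Values are FPKM, which divide the fragments of a gene by its length and by the size of the library, so levels can be compared between genes. Estimated depth was 7.39 M to 32.7 M mapped reads per library. For the members with a single transcript this corresponds to about 25 to 584 reads per library for Ifit1, 38 to 564 for Ifit3 and 2 to 190 for Isg15, so the lowest Isg15 values rest on very few reads. The tissue labels were checked with markers: over the mean of stages, 9 of 9 periportal hepatocyte markers were higher and 9 of 9 pericentral markers were lower in zone 1 than in zone 3. In 6 libraries labelled female, 4 Y-linked genes summed to over 5 FPKM, and values without these 6 are given beside named genes whose call or direction changed. They were replicate 1 in zone 1 and replicate 2 in zone 3 of NP liver, replicate 1 in zone 1 and replicate 2 in zone 2 of dpc8 liver, and replicate 3 in zones 2 and 3 of dpc16 liver. No 2 libraries held identical values.

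The promoters of the members were searched for the response element, since it is the sequence that the shared signal acts on. RefSeq promoters (250 bases before to 50 bases after a gene's start, build GRCm38.p6) matched 8 of the 9 members, and Usp18 had no entry. Its core, GAAA followed by any 2 bases and GAAA again, was searched on both strands and found in 5 of these 8 promoters against 3.44% of 32851 promoters of the same length. The gamma-activated sequence, TTCNNNGAA, read on both strands, was found in 0 of the 8 against 8.3% of all promoters. The stretches that hold the core follow, written 5′ to 3′ on the strand of the gene with the matches in capitals, which read TTTC, 2 bases and TTTC where the core lies on the other strand.
Ifit1, chr19:34640755-34640843, plus strand: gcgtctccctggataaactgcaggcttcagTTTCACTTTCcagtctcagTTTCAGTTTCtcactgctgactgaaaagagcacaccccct
Ifit3, chr19:34583343-34583446, plus strand: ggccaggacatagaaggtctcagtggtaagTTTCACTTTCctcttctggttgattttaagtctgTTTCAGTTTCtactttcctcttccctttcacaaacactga
Isg15, chr4:156200845-156200926, minus strand: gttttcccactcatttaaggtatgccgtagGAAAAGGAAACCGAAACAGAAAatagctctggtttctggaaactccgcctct
Rsad2, chr12:26456533-26456602, minus strand: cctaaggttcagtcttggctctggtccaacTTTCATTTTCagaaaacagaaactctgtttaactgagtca
Gbp2, chr3:142620574-142620621, plus strand: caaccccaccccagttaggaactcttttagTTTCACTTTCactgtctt
Ifit1 and Ifit3 each held 2 separate matches, Isg15 held 3 that overlap each other, and Rsad2 and Gbp2 held 1 each. In these 5 genes the match nearest to the RefSeq start ended 50 to 113 bases before it. The GENCODE bounds of Gbp2 begin further upstream than the RefSeq start, and its match lies just inside them. The letters were not found in the windows of Oasl1, Oasl2 and Irf7. These matches are letters in a sequence and say nothing of binding in these livers.

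The members lie on 7 chromosomes in build mm10 (GENCODE gene bounds). Ifit3 (chr19:34583531-34588731) and Ifit1 (chr19:34640871-34650009) lie near each other, as do Oasl2 (chr5:114896936-114912234) and Oasl1 (chr5:114923240-114937915). The others are Gbp2 (chr3:142620602-142638008), Isg15 (chr4:156199424-156200818), Usp18 (chr6:121245906-121270917), Irf7 (chr7:141262706-141266481) and Rsad2 (chr12:26442746-26456452).

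Levels were low to moderate and differed between the members. Irf7, a transcription factor that drives interferon genes, was the most abundant, with a mean of 23.5 ± 8.99 FPKM in NP liver (SD, n = 9 libraries over the 3 zones). The lowest NP means were those of Gbp2, a large GTPase that restricts intracellular microbes (4.33 ± 1.28 FPKM), and Oasl2, a relative of the oligoadenylate synthetases (4.51 ± 1.13 FPKM, both SD, n = 9). The highest of the 9 group means was an NP group for 8 members, and dpc16 zone 2 for Rsad2. For Isg15, Irf7, Usp18 and Gbp2 the 3 dpc16 groups had the 3 lowest means. Most neighbours in these orders lay closer together than the larger of their SDs: this held for 5 to 8 of the 8 neighbouring pairs of each member.

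**Figure D1:**
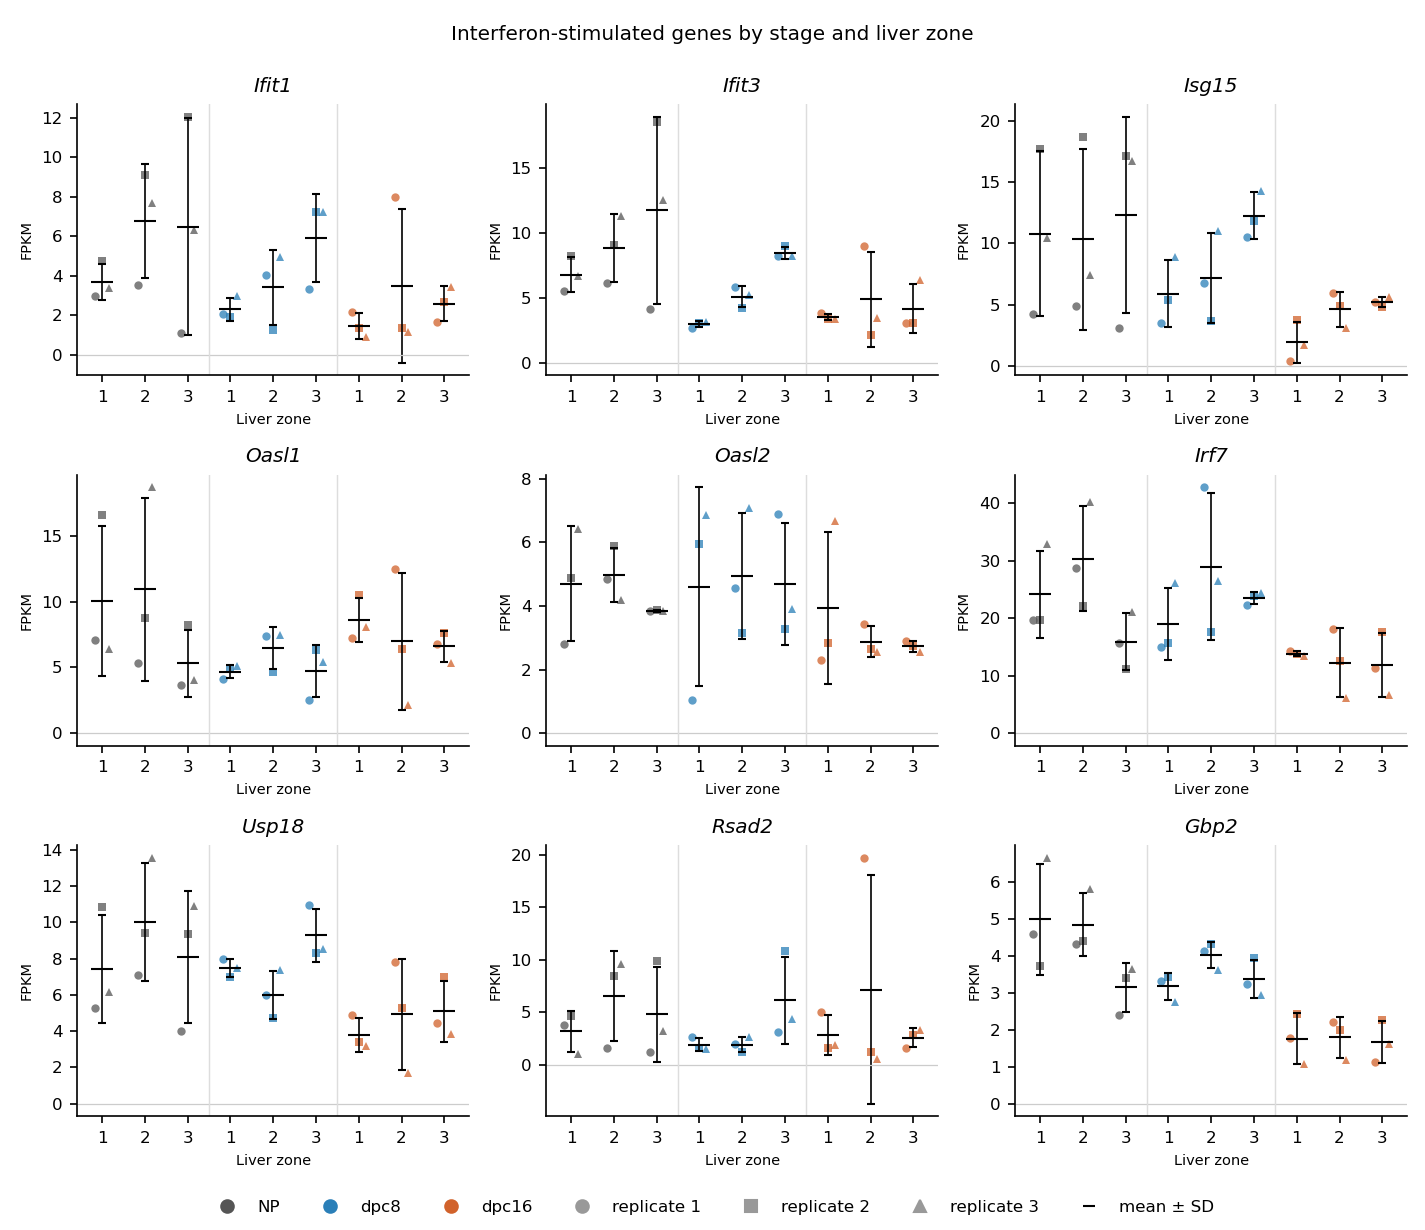
FPKM of each gene (vertical axes) by liver zone 1, 2 and 3 (horizontal axes) at NP, dpc8 and dpc16, with 1 point per library, the point shape giving the replicate number and black bars the mean ± SD of 3 libraries. Gbp2 lies between 1.07 and 2.44 FPKM in the 9 dpc16 libraries and between 2.76 and 4.31 in the 9 dpc8 libraries, and Rsad2 reaches 19.7 FPKM in 1 dpc16 zone 2 library.

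dpc16 was compared with NP to ask how the genes stood in late gestation. Averaged over the 3 zones, 5 of the 9 members fell: Isg15, Gbp2, Ifit3, Irf7 and Usp18, with 0 higher. All 9 estimates were negative, with a median log2 fold change of -0.83, against a median of -0.01 and 51.3% negative among the 12952 genes tested. The share of all genes called in this comparison was 11.8%, and the share called lower was 6.15%. The test was limma on log2(FPKM + 1) with Benjamini-Hochberg adjustment over all genes at 0.05, and fold changes on this scale understate the change of low genes. If the libraries of a stage share animals, which the labels leave unsaid, the p-values of all comparisons averaged over zones are too small. In tissue pieces such as these, fewer cells of a type and less RNA per cell cannot be told apart.

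Gbp2 had the lowest adjusted p of the 9. Its FPKM in dpc16 liver was 1.77, 2.44 and 1.07 in zone 1, 2.206, 1.996 and 1.178 in zone 2, and 1.12, 2.26 and 1.63 in zone 3. In NP liver it was 4.58, 3.74 and 6.66 in zone 1, 4.32, 4.39 and 5.82 in zone 2, and 2.40, 3.41 and 3.65 in zone 3. Thus 8 of 9 NP libraries lay above all 9 dpc16 libraries, the exception being NP zone 3 replicate 1. The log2 fold change was -0.95 ± 0.14 (SE, limma adjusted p = 0.000103). Each library left out in turn, and each of the 10 other settings tried, kept this call.

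Isg15 encodes a small ubiquitin-like protein that is attached to other proteins, and Usp18 the enzyme that removes it and dampens signalling at the type I receptor. Isg15 ranged from 0.382 to 5.91 FPKM at dpc16 (median 4.79) and from 3.12 to 18.7 in NP liver (median 10.4). Usp18 ranged from 1.70 to 7.82 FPKM at dpc16 (median 4.46) and from 3.99 to 13.6 in NP liver (median 9.34). The ranges of both genes overlapped. The log2 fold change was -1.23 ± 0.33 for Isg15 (SE, limma adjusted p = 0.0157) and -0.77 ± 0.22 for Usp18 (SE, limma adjusted p = 0.0223). The call of Usp18 was lost without NP zone 1 replicate 2 (adjusted p = 0.0555), without NP zone 3 replicate 3 (adjusted p = 0.0523) and without the 6 Y-linked libraries (adjusted p = 0.0767), all by limma. It was also lost with the replicate number within a stage as a block (limma adjusted p = 0.066), with only the 2 stages fitted (0.0648) and with quantile normalization (0.068). By gene bounds, introns included, Usp18 overlaps a noncoding gene on the other strand over 15715 bases. Gbp2 and Oasl1 overlap short noncoding genes there over 87 and 38 bases. Strand use in the counting is not given in the sources used here, so reads from any shared exons cannot be told apart. The overlap of exons was not computed.

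Ifit1 binds viral RNA that lacks the host's cap methylation, and Ifit3 is a related protein of the same family. Ifit3 ranged from 2.13 to 8.99 FPKM at dpc16 (median 3.38) and from 4.17 to 18.5 in NP liver (median 8.19), with a log2 fold change of -0.94 ± 0.23 (SE, limma adjusted p = 0.00839). Its near copy Ifit3b, whose reads can be confused with those of Ifit3, had medians of 1.11 FPKM at dpc16 and 2.18 in NP liver. Ifit1 ranged from 0.871 to 7.97 FPKM at dpc16 (median 1.66) and from 1.097 to 12.0 in NP liver (median 4.72). Its log2 fold change of -0.91 ± 0.33 did not pass the test (SE, limma adjusted p = 0.0756). The highest dpc16 value of both genes was in zone 2 replicate 1, and Ifit1 passed the test without that library (limma adjusted p = 0.0161) or without NP zone 3 replicate 1 (limma adjusted p = 0.0115). It also passed with array weights (limma adjusted p = 0.0145) and with values rescaled to a common sum (limma adjusted p = 0.00822).

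Irf7 ranged from 6.17 to 18.1 FPKM at dpc16 (median 13.5) and from 11.1 to 40.3 in NP liver (median 21.0), with a log2 fold change of -0.83 ± 0.22 (SE, limma adjusted p = 0.0132). The end of Irf7 shares 45 bases with a gene on the other strand, Phrf1. Oasl1, which in mouse limits the translation of Irf7, had medians of 7.28 FPKM at dpc16 and 7.09 in NP liver, and its log2 fold change was -0.14 ± 0.26 (SE). That of Oasl2 was -0.42 ± 0.24, from medians of 2.75 and 4.20 FPKM. Rsad2, an enzyme that makes an antiviral nucleotide and is also called viperin, had medians of 1.86 and 3.81 FPKM and a log2 fold change of -0.38 ± 0.43 (SE). These 3 genes did not pass the test, and their 95% confidence intervals were -0.69 to 0.41 for Oasl1, -0.91 to 0.07 for Oasl2 and -1.28 to 0.52 for Rsad2. Oasl2 passed with array weights (limma adjusted p = 0.0378) and rescaled (limma adjusted p = 0.0263). The estimates of Oasl1 and Rsad2 turned positive without the 6 Y-linked libraries (0.13 and 0.07).

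**Figure D2:**
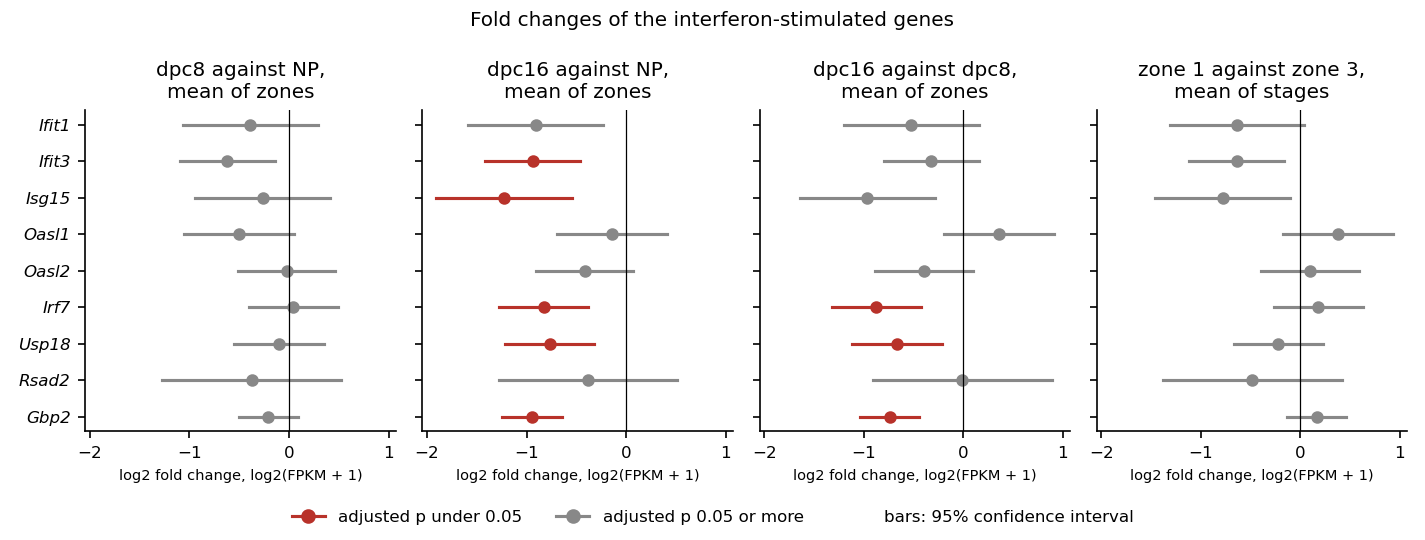
limma log2 fold changes on the log2(FPKM + 1) scale (horizontal axes) of the 9 genes (rows) in the comparisons of stages averaged over zones and of zones averaged over stages, with bars for the 95% confidence interval and red marking an adjusted p under 0.05. In dpc16 against NP, 5 of the 9 genes are red and all estimates lie below 0, from -1.23 to -0.14, while the panels of dpc8 against NP and of zone 1 against zone 3 hold no red point.

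Within single zones, with 3 libraries against 3, fewer genes passed. In zone 1 only Gbp2 of the 9 fell, by 1.12 on the log2 scale (limma adjusted p = 0.0216), against 1.37% of all genes called and 0.371% called lower. In zone 2 only Gbp2 fell, by 1.08 (limma adjusted p = 0.0179), against 2.66% called and 1.64% called lower. In zone 3, 0 of 9 passed, against 1.32% of all genes, and 2 had an unadjusted p under 0.05, as 11.5% of all genes did. The zone 1 call was lost without dpc16 zone 1 replicate 1 or 3 or NP zone 1 replicate 1 or 3, and the zone 2 call without replicate 3 of dpc16 zone 2 or of NP zone 2 and without the 6 Y-linked libraries (limma adjusted p = 0.0884). Neither call held when only the 2 groups compared were fitted (limma adjusted p = 0.241 and 0.33) or with quantile normalization (limma adjusted p = 0.212 and 0.0742).

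The 3 dpc16 values lay below all 3 NP values for 6 members in zone 1 (Ifit1, Ifit3, Isg15, Irf7, Usp18 and Gbp2), where 8.01% of all genes did so. In zone 2 this held for Oasl2, Irf7 and Gbp2 against 9.59% of all genes, and in zone 3 for Oasl2 and Gbp2 against 8.87%. Isg15 in zone 1 was the most reduced by estimate, at 0.382, 3.70 and 1.70 FPKM in dpc16 liver and 4.23, 17.7 and 10.4 in NP liver. Its log2 fold change there was -1.997 ± 0.57 (SE) and did not pass the test (limma adjusted p = 0.0932). It passed without the 6 Y-linked libraries (limma adjusted p = 0.0259) and without NP zone 3 replicate 1 (limma adjusted p = 0.0456). Irf7 in zone 2 was at 18.1, 12.5 and 6.17 FPKM in dpc16 liver and at 28.8, 22.2 and 40.3 in NP liver, with a log2 fold change of -1.31 ± 0.37 (SE, limma adjusted p = 0.0619). It passed without dpc16 zone 2 replicate 1 (limma adjusted p = 0.0294) or dpc16 zone 3 replicate 3 (limma adjusted p = 0.0484). Whether the change differed between zones 1 and 3 was tested as a contrast of the changes: 0 of 9 members passed for dpc16 (0 also at an unadjusted p under 0.05, against 3.16% of all genes), where 0.054% of all genes did.

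dpc16 was also compared with dpc8, which separates late from mid gestation. Averaged over zones, Gbp2, Irf7 and Usp18 fell and 8 of 9 estimates were negative, with a median of -0.52 against -0.01 over all genes. In this comparison 11.1% of all genes were called and 5.69% were called lower. Gbp2 was at 3.32, 3.43 and 2.76 FPKM in zone 1, 4.13, 4.31 and 3.62 in zone 2, and 3.24, 3.94 and 2.94 in zone 3 of dpc8 liver. All 9 of these values lay above all 9 dpc16 values, which 0.425% of all genes also showed. The log2 fold change of Gbp2 was -0.74 ± 0.14 (SE, limma adjusted p = 0.0015).

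Irf7 ranged from 15.1 to 42.8 FPKM at dpc8 (median 23.9), above the dpc16 median of 13.5 in every library. Its log2 fold change was -0.87 ± 0.22 (SE, limma adjusted p = 0.0101). Usp18 ranged from 4.71 to 10.98 FPKM at dpc8 (median 7.48) and changed by -0.67 ± 0.22 (SE, limma adjusted p = 0.0499). This call was lost in 20 of the 27 fits that left out 1 library, without the 6 Y-linked libraries (-0.49, limma adjusted p = 0.1245) and with the replicate number within a stage as a block (limma adjusted p = 0.124). It was also lost with the number across groups as a block, with no filter and with quantile normalization (limma adjusted p = 0.0592, 0.066 and 0.132). Isg15, at a median of 8.84 FPKM in dpc8 liver, had a log2 fold change of -0.96 ± 0.33 (SE) and missed the threshold (limma adjusted p = 0.062). It passed in 5 of the 27 fits that left out 1 library, which was replicate 2 of dpc16 zone 1, replicate 1 of zone 1 or replicate 2 of zone 2 in dpc8 liver, or replicate 1 of zone 1 or zone 3 in NP liver. It also passed with only the 2 stages fitted (limma adjusted p = 0.0198) and without the 6 Y-linked libraries (limma adjusted p = 0.0318).

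In no single zone did a member pass in dpc16 against dpc8, where 2.01%, 1.51% and 1.37% of all genes were called in zones 1, 2 and 3, and 3, 2 and 4 members had an unadjusted p under 0.05, against 13.4%, 12.1% and 12.4% of all genes. In zone 3, the dpc16 values lay below all dpc8 values for Ifit3, Isg15, Oasl2, Irf7, Usp18 and Gbp2, against 12.2% of all genes. In zone 2 this held for Gbp2 alone, against 6.96%. In zone 1 it held for Irf7, Usp18 and Gbp2 against 10.1%, while Ifit3 and Oasl1 lay above all dpc8 values, as 9.8% of all genes did. Ifit3 in zone 1 was at 3.79, 3.35 and 3.38 FPKM at dpc16 and at 2.70, 3.08 and 3.10 at dpc8. In zone 3 it was at 3.08, 3.08 and 6.34 at dpc16 and at 8.17, 8.99 and 8.18 at dpc8. The order of the stages for Ifit3 was thus opposite in these zones, and the difference was not tested.

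dpc8 was compared with NP to ask about mid gestation. Averaged over zones, 0 of 9 members passed by limma, where 0.108% of all genes were called, and 1 member (Ifit3) had an unadjusted p under 0.05, against 6.11% of all genes. Of the 9 estimates, 8 were negative, with a median of -0.26. Ifit3 ranged from 2.70 to 8.99 FPKM at dpc8 against 4.17 to 18.5 in NP liver. In zones 1, 2 and 3 taken singly, 0 members passed, against 0.0309%, 0.00772% and 0.0154% of all genes, while an unadjusted p under 0.05 was reached by 1, 0 and 0 members and by 3.13%, 5.06% and 2.74% of all genes. Few genes of any kind passed in these comparisons, so a count of 0 says little about the members. In zone 1, Ifit3, Oasl1 and Gbp2 lay below all NP values, against 2.92% of all genes. In zone 2, Ifit3 and Gbp2 did so, against 5.76%. In zone 3, Irf7 went the other way, at 22.3, 23.9 and 24.4 FPKM above all NP values (15.7, 11.1 and 21.0), as 4.74% of all genes did. The contrast of the dpc8 change between zones 1 and 3 called 0 members, and 0% of all genes.

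Zone 1 was compared with zone 3 to ask whether the genes were zonated. No member passed in NP, dpc8 or dpc16 liver, where 1.34%, 1.61% and 1.55% of all genes were called, and 0, 1 and 1 members had an unadjusted p under 0.05, against 8.02%, 12.2% and 7.86% of all genes. With the stages averaged, 0 of 9 passed against 5.59% of all genes, and 2 had an unadjusted p under 0.05, against 15.4%. In NP liver the zone 1 values of Gbp2 lay above all zone 3 values, as 6.63% of all genes did. The most members separated in dpc8 liver, where the zone 1 values of Ifit1, Ifit3, Isg15, Usp18 and Rsad2 lay below all zone 3 values, as 10.5% of all genes did. In dpc16 liver this held for Isg15 alone, against 6.39% of all genes. Ifit3 in dpc8 liver was at 2.70, 3.08 and 3.10 FPKM in zone 1, at 5.86, 4.24 and 5.17 in zone 2, and at 8.17, 8.99 and 8.18 in zone 3. These 3 groups did not overlap, and the share of all genes with 3 separate zones was not counted. The log2 fold change between zones 1 and 3 was -1.26 ± 0.40 (SE) and did not pass the test in the fit of all 27 libraries (limma adjusted p = 0.142). It passed when only the 2 groups were fitted (limma adjusted p = 0.0423) and with array weights (limma adjusted p = 0.0207).

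The members varied together to different degrees. Among the 36 pairs, the Pearson correlation of log2(FPKM + 1) over the 27 libraries ranged from -0.04 (Oasl2 with Rsad2) to 0.88 (Ifit1 with Ifit3), with a median of 0.44. Taken as deviations from the group means, which leave out stage and zone, it ranged from -0.21 (Oasl2 with Gbp2) to 0.87 (Ifit1 with Ifit3). These values share libraries and depth and are a description. Single libraries moved many members together: dpc16 zone 2 replicate 1 was the highest of its group for 9 of 9 members, and dpc16 zone 2 replicate 3 the lowest for 8. The first held 19.7 FPKM of Rsad2 against 1.24 and 0.52 in the other libraries of the group, and 7.97 FPKM of Ifit1 against 1.34 and 1.14. NP zone 3 replicate 1 was the lowest of its group for 7 members and dpc8 zone 2 replicate 2 for 8. The 5 genes outside the list with the highest correlation with the members' mean over 27 libraries were Irgm1 (0.83), Ifi47 (0.82), Igtp (0.82), Slc22a15 (0.81) and Slc17a3 (0.79). The first 3 encode GTPases of the interferon-inducible immunity-related family, and the last 2 encode solute carriers.

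**Figure D3:**
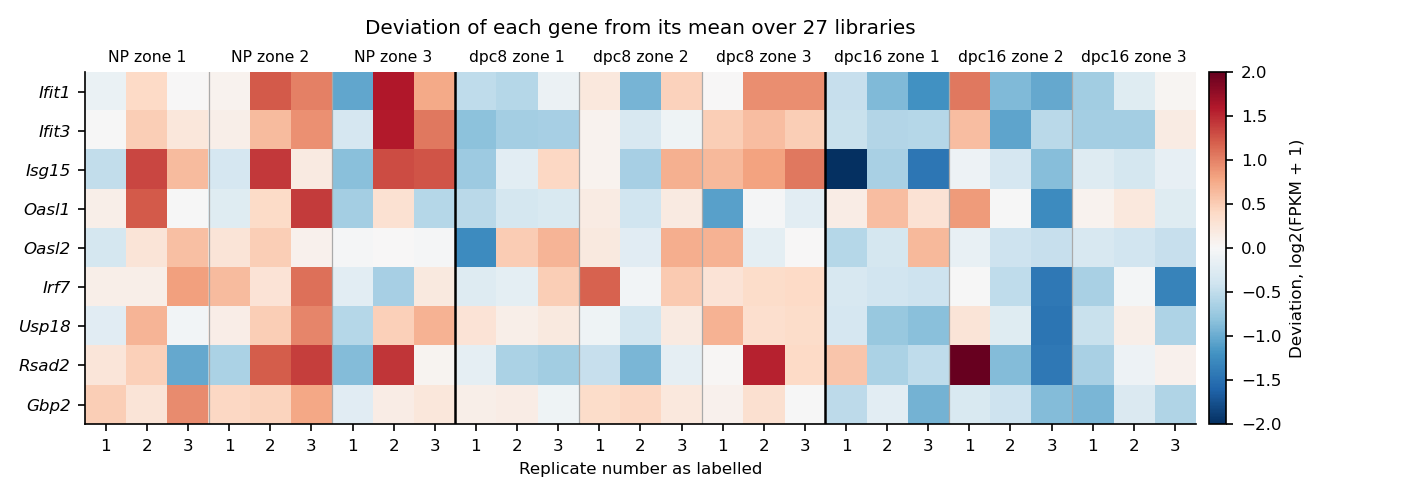
Deviation of log2(FPKM + 1) of each gene (rows) from its own mean over the 27 libraries (columns, with the replicate number as labelled under each group), with the colour scale ending at -2 and 2. Gbp2 is below its mean in all 9 dpc16 libraries, and dpc16 zone 2 replicate 1 stands out as the only library of that group with high Ifit1, Ifit3, Oasl1 and Rsad2.

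The rest of the pathway was read from lists. Interferon ligands were at or near 0: 20 of 21 had a value of 0 throughout and Ifng reached at most 0.317 FPKM, so none entered the test. Of 18 tested receptors and transducers, 3 fell in dpc16 against NP, Irf5 and Irf1 among them, and Ifngr2, a chain of the interferon gamma receptor, rose. In this comparison 11.8% of all genes were called and 6.15% were called lower. Irf5 had a log2 fold change of -1.03, and its call was lost in 7 of 27 fits without 1 library and without the 6 Y-linked libraries (-0.90, limma adjusted p = 0.0575). Quantile normalization also lost the call of Irf5 (limma adjusted p = 0.0589). Irf1 had a log2 fold change of -0.66 and Ifngr2 one of 0.63. With the replicate number within a stage as a block, the calls of Irf5, Irf1 and Ifngr2 were lost (limma adjusted p = 0.0569, 0.0672 and 0.0658). With values rescaled to a common sum per library, Ifngr2 was at 0.26 (limma adjusted p = 0.44). Stat2 and Irf9 did not pass: Stat2 had medians of 23.6 FPKM at dpc16 and 17.6 in NP liver, and Irf9 12.7 and 13.6. The type I receptor chains did not pass either, with medians of 23.6 and 22.4 FPKM for Ifnar1 and 64.4 and 51.1 for Ifnar2. The median over this list was -0.09.

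Of 48 other type I interferon-stimulated genes tested, 14 fell and 0 rose in dpc16 against NP, where 6.15% of all genes were called lower. The median of the 48 was -0.47, with 45 negative estimates. The largest falls were in Xaf1 (-1.11 ± 0.26, limma adjusted p = 0.0055), Rtp4 (-1.07 ± 0.17, limma adjusted p = 0.000152) and Ube2l6, the conjugating enzyme of Isg15 (-1.07 ± 0.29, limma adjusted p = 0.0165, all SE). The count was 9 without dpc16 zone 2 replicate 3 and 6 with the replicate number within a stage as a block, where Ube2l6 was among the calls lost (limma adjusted p = 0.0658). Among 19 GTPases and chemokines that interferon gamma induces, 8 fell and 0 rose, against the same 6.15% of all genes, with a median of -0.65. Gbp3 led this list, at 0.988 to 3.32 FPKM in dpc16 liver against 3.73 to 12.9 in NP liver. These ranges did not overlap, and 0.587% of all genes had all dpc16 values below all NP values. The log2 fold change of Gbp3 was -1.71 ± 0.21 (SE, limma adjusted p = 5.92e-06). Cxcl9, a chemokine for T cells, changed by -1.27, and Gbp7 by -1.02. Of 17 nucleic acid sensors and adaptors, 3 fell (Dhx58 by 1.25, Tlr3 by 0.87 and Ddx58 by 0.63 on the log2 scale) and 0 rose. The share of all genes called lower was again 6.15%, and the median of the list was -0.29. The count of 3 was 1 without replicate 1 or 2 of dpc16 zone 1 or replicate 2 of NP zone 1. It was also 1 with the block, where the calls of Tlr3 and Ddx58 were lost (limma adjusted p = 0.0908 and 0.0788).

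**Figure D4:**
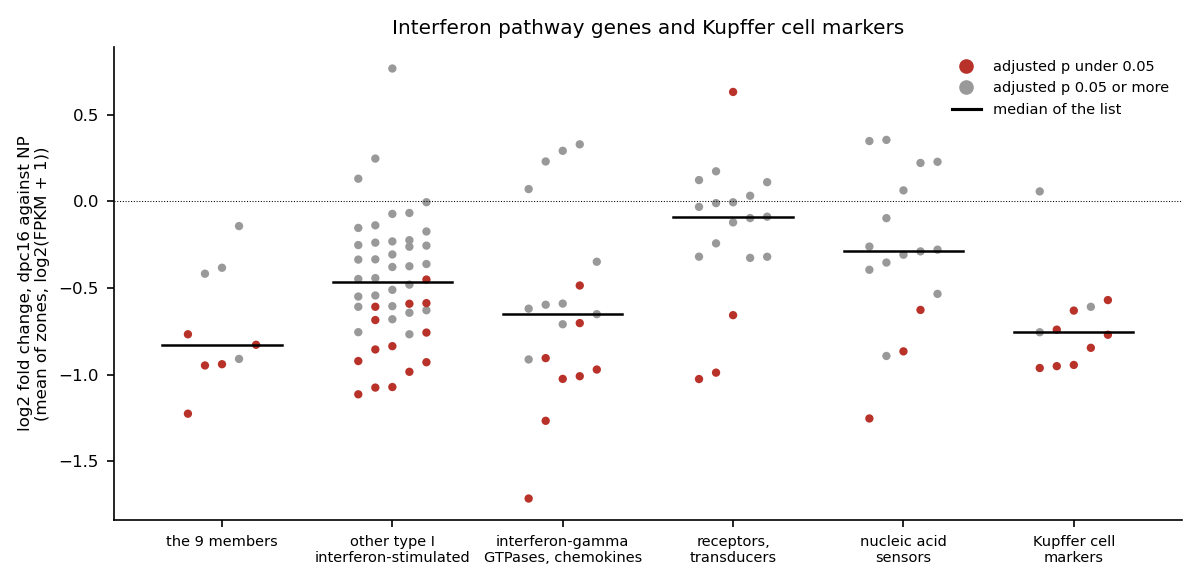
limma log2 fold changes of dpc16 against NP, averaged over zones (vertical axis), for the 9 genes, 4 lists of the interferon pathway and the Kupffer cell markers, with 1 point per gene, red for an adjusted p under 0.05 and a line at the median of each list. The medians run from -0.83 for the 9 genes to -0.09 for receptors and transducers, and the Kupffer cell markers lie at -0.76.

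In dpc16 against dpc8, 14 of the 48 type I genes and 5 of the 19 interferon gamma genes fell, and 0 rose in either list, with medians of -0.41 and -0.51. Of 18 receptors and transducers 2 fell (Irf1 and Irf2), and of 17 sensors 0 passed by limma, with 7 at an unadjusted p under 0.05. Of all genes, 5.69% were called lower and 23.9% had an unadjusted p under 0.05 in this comparison. The count of 2 was 1 in 18 of the 27 fits that left out 1 library, and 0 with the replicate number within a stage as a block. The type I count was between 8 and 14 over the fits that left out 1 library and 5 with the block, and the interferon gamma count was between 4 and 6 without 1 library and between 3 and 12 over the other settings. Libraries whose absence took the type I count to 8 or 9 were replicates 1 and 2 of zone 1 and replicate 3 of zones 2 and 3 at dpc16, and replicate 2 of zone 1, replicates 1 and 3 of zone 2 and replicate 1 of zone 3 at dpc8. In dpc8 against NP, 0 genes of the 4 tested pathway lists passed by limma (2 in each list had an unadjusted p under 0.05, against 6.11% of all genes), with medians between -0.06 and -0.02. Between zones, with the stages averaged, Gbp10 was the only gene of these lists to pass, lower in zone 1 by 1.34 on the log2 scale (limma adjusted p = 0.00189). Of all genes, 5.59% were called in this comparison.

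Kupffer cell markers were compared over the same stages. Of 11 markers, 8 fell in dpc16 against NP averaged over zones, against 6.15% of all genes called lower. The markers had a median log2 fold change of -0.76, and 4 fell with the replicate number within a stage as a block. In zones 1, 2 and 3 taken singly, 1, 9 and 7 of the 11 had an unadjusted p under 0.05. Of all genes, 11%, 16.6% and 11.5% did so. In dpc16 against dpc8, 8 of 11 also fell, against 5.69% of all genes called lower. The median of the markers was -0.76 there, and the count was 3 with the block. It was 4 or 5 without replicate 2 of zone 1 or replicate 3 of zone 3 at dpc16, or without replicate 2 of zone 1, replicate 1 or 3 of zone 2 or replicate 2 of zone 3 at dpc8. The summed level of the 11 markers was 173 to 624 FPKM in NP, 193 to 440 in dpc8 and 56.8 to 336 in dpc16 libraries. None of the 11 was at 0 in all 27 libraries. Clec4f, a lectin that defines Kupffer cells in mouse, had medians of 50.3, 36.9 and 36.4 FPKM. The dpc16 library with the highest mean of the members, zone 2 replicate 1, also had the highest marker sum of that stage. Zone 2 replicate 3, 1 of the 6 Y-linked libraries, had the lowest mean of the members and a marker sum of 89.2 FPKM. The other zones did not follow this order. At dpc16 the marker sum was 190 to 252 FPKM in zone 1 and 56.8 to 127 in zone 3. The mean log2(FPKM + 1) of the members was 2.12 to 2.25 in zone 1 and 2.17 to 2.48 in zone 3. Of 8 tested markers of other leukocytes 0 passed, and of 8 sinusoidal endothelial markers 1 fell. Among all genes, 11.8% were called in dpc16 against NP and 6.15% were called lower, so such counts say little. Of 7 tested general hepatocyte markers, 3 rose and 2 fell, and their summed level had medians of 56380 FPKM in NP, 37810 in dpc8 and 170600 in dpc16 libraries. The sum of FPKM over all genes had medians of 616449, 597471 and 866176. Rescaling to a common FPKM sum was run as an alternative, and its results are given with the other settings. Beyond this, the part of these cells and of the FPKM sum in the result was not tested.

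**Figure D5:**
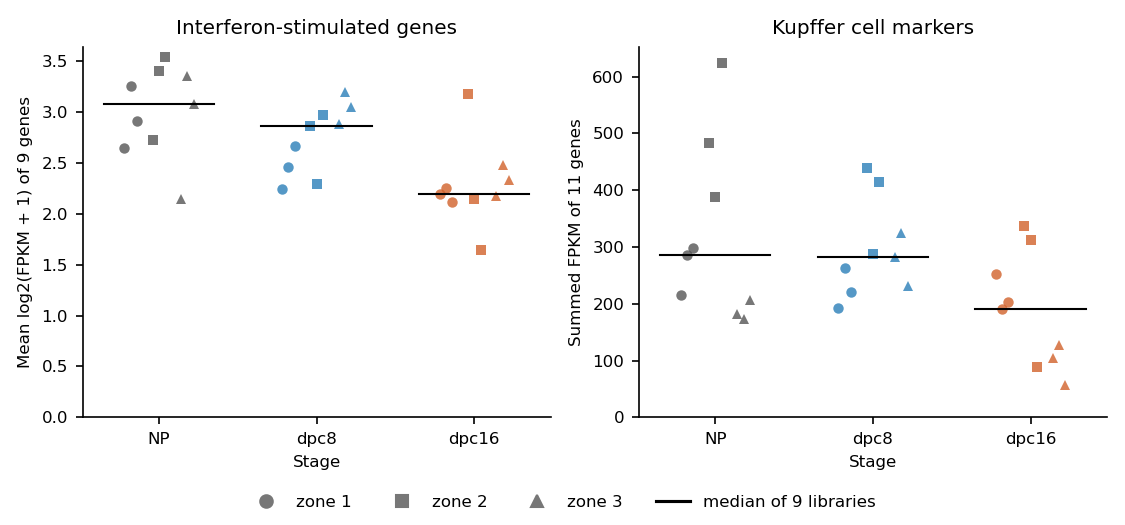
Mean log2(FPKM + 1) of the 9 genes (left) and summed FPKM of 11 Kupffer cell markers (right) by stage, with 1 point per library, the shape giving the zone and a line at the median of 9 libraries. The medians of the left panel are 3.08, 2.87 and 2.19 at NP, dpc8 and dpc16, and those of the right panel are 286, 283 and 190 FPKM.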

How the data were processed

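Per the labels and the study's methods, ribosomal RNA was depleted, reads were trimmed with cutadapt and aligned to mm10 with HISAT2 2.1.0, and the authors then computed the deposited FPKM of protein-coding genes (GENCODE) by Cuffdiff (Cufflinks 2.2.1). Depth was estimated from the steps of low values, of which 93.94% to 99.45% per library lay within 0.1 of a whole read; it gives no interval. Here, limma 3.58.1 (R 4.3.3, trend and robust) was fitted to log2(FPKM + 1) of the 12952 genes with at least 1 FPKM in at least 3 libraries, with 9 group means and 18 two-sided comparisons. The members and lists were chosen with earlier results of these data known. Named are all members, core signalling genes and up to 3 called genes per list, comparison and direction, except 1 gene that is not reported here. The scripts were tested on simulated data. Alternatives were another pseudocount, other filters, quantile normalization, array weights, only the groups compared, a replicate block, leaving out each library or the Y-linked libraries, and rescaling. Same-numbered dpc16 libraries deviated together from their group means (9 of 9 correlations over 0.1, from 0.26 to 0.86) and those of the other stages did not in all pairs (4 of 9 and 5 of 9). The reported fit has no block, and the number within each stage was a block in an alternative. Gene positions came from GENCODE vM21 and promoters from RefSeq, both on mm10 coordinates.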

Additional observations from a re-analysis of the deposited data

Results flagged for a closer look

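The change of Ifit3 from dpc8 to dpc16 pointed in opposite directions in zones 1 and 3. All 3 dpc16 libraries lay above all 3 dpc8 libraries in zone 1, as 9.8% of all genes did, and below them in zone 3, as 12.2% did. The group mean went from 2.96 FPKM at dpc8 to 3.51 at dpc16 in zone 1, and from 8.45 to 4.16 in zone 3. The log2 fold changes of the zones differed by 1.12. This difference was not tested.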

How the results depend on the processing

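Averaged over zones, 4 to 7 members were called in dpc16 against NP under the other settings and 4 to 6 without 1 library, and Gbp2, Ifit3, Isg15 and Irf7 were called in each. In dpc16 against dpc8, averaged over zones, 5 were called with array weights, 6 with values rescaled to a common sum (chosen after seeing the data) and 2 to 4 without 1 library. That rescaling took the median of all genes to about -0.31 and -0.36 in these comparisons, over the genes that passed the filter after rescaling. For dpc16 against NP in zone 1, where 1 member was called, the count was 2 with array weights, with the replicate number across groups as a block or without the Y-linked libraries, 4 rescaled, 0 with only the groups compared or quantile normalization, and 0 to 2 without 1 library. In zone 2 it was 0 with only the groups compared, quantile normalization or without the Y-linked libraries, 3 rescaled, and 0 to 2 without 1 library. In zone 3 it was 1 with array weights and 0 to 1 without 1 library. For dpc16 against dpc8, counts were 4 in zone 1 and 2 in zones 2 and 3 rescaled, 1 in zone 2 and 3 in zone 3 with array weights, and 1 in zone 3 with only the groups compared. Zone 1 against zone 3 gave 1 at dpc8 with array weights or only the groups compared, and 0 to 1 over the stages without 1 library. The log2 fold change of Oasl1 in dpc16 against NP turned to 0.0201 with array weights and to 0.1342 without the Y-linked libraries, and ranged from -0.31 to 0.0441 without 1 library (above 0 without replicate 3 of dpc16 or NP zone 2), and that of Rsad2 turned to 0.0656 without the Y-linked libraries. Over all genes, 1529 were called in dpc16 against NP and 1432 in dpc16 against dpc8, against 2901 and 3527 with array weights, 3234 and 3634 rescaled, 881 and 801 with the replicate number within a stage as a block, and, for the second, 2417 without the Y-linked libraries. In dpc16 against NP, the 14 type I genes became 22 with array weights, 33 rescaled and 8 with quantile normalization, and the 8 interferon gamma genes became 13 with array weights or rescaled. The 3 sensors became 6, 10, 1 and 5 with array weights, rescaling, quantile normalization and without the Y-linked libraries, the 3 receptors and transducers became 10 rescaled, and the 8 Kupffer cell markers became 5 with only the groups compared. In dpc16 against dpc8, the 14 type I genes became 33 rescaled and 7 with quantile normalization, and the 5 interferon gamma genes 9 with array weights, 12 rescaled and 3 with quantile normalization. The 0 sensors became 4 with array weights, 9 rescaled and 3 without the Y-linked libraries, the 2 receptors and transducers became 4 with array weights, 9 rescaled and 1 with no filter, and the 8 Kupffer cell markers became 4 with only the groups compared. The causes were not tested.

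With the replicate number within a stage as a block, 4 members were called in dpc16 against NP and 2 in dpc16 against dpc8, averaged over zones. Usp18 lost its call in both, and no other member lost one. With the number across groups as a block these counts were 5 and 3, with Isg15 in place of Usp18 in the second. Of the 3 members with estimated reads, depth limits Isg15 most, with as few as 2 in a library.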
